A study of Macaca mulatta with 64 samples.

Results

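Clusterin (CLU, ENSMMUG00000021516) and apolipoprotein E (APOE, ENSMMUG00000014305) were followed through 64 CAGE-seq libraries of rhesus macaque brain. Every 5′-end position assigned to either gene was taken, 224 for CLU and 97 for APOE, which makes 321 of the 160389 positions and 2 of the 13269 genes listed. The libraries came from the cerebellar cortex (CB), from the CA1 and dentate gyrus (DG) of the hippocampus, and from 5 areas of the neocortex, namely the prefrontal (PFC), posterior cingulate (PCC), temporal (TC), parietal (PC) and occipital (OC) cortex. Healthy, socially housed females and males of 1, 4, 10 and 20 yr were sampled, and each combination of region, age and sex gave a single library. There were 2 animals of each age and sex, and per the methods a sample stands for such a matched pair in RNA-seq, with CAGE-seq run on those 64 samples. An age and sex together are called an animal group here, and no combination was sequenced again. In comparisons of ages or sexes over all regions, errors reflect the spread between the 8 animal groups. In comparisons of regions they reflect the spread left after region and animal group are fitted. For ages within a region they reflect the spread between the female and male libraries of a region and age.

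Clusterin, also called apolipoprotein J, is a secreted chaperone that binds misfolded proteins and lipids outside the cell and also holds back the membrane attack complex of complement. Apolipoprotein E is the main protein of the lipoprotein particles that carry cholesterol between brain cells, and it is taken up through receptors of the LDL receptor family. In brain both are made largely by astrocytes, with contributions from neurons and, for APOE, from activated microglia, and both genes carry variants tied to the risk of late-onset Alzheimer's disease in humans.

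CAGE-seq counts the first bases of RNA molecules as tags. The value of a position is its tags per 1000000 tags of the library, called TPM here, and the TPM of a gene is the sum over its positions with no correction for length. In the low values 1 tag was worth 0.164 to 0.666 TPM, which puts the libraries at about 1.50e+06 to 6.10e+06 tags. No listed value above 0 was under 1 TPM, so a 0 means that no position reached that level. The libraries listed 644 to 23670 positions, and CA1 listed the most (12036 ± 5290, SD, n = 8) against 3609 ± 1816 in DG and 1789 ± 876 in PCC. Of 10 marker genes of cerebellar granule and Purkinje cells, 8 had a listed position and 5 were tested. Of these 5, 4 were called higher in CB than in the other regions, where 0.884% of all genes were (limma, as below). Tested genes had to reach 1 TPM in 8 libraries, which the 8 CB libraries alone can meet. Whether these markers met it elsewhere was not checked.

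CLU had 1 leading stretch of start positions. CLU lies on the minus strand of chromosome 8, from 27744312 to 27761664 of the MMUL 1.0 assembly, and positions are given here as the distance from the annotated start (27761664) along transcription. 3 positions, 150, 153 and 156 nt inside the gene, held 86.4% of all CLU TPM. The position at 153 nt (27761511) alone held 72.5% and was listed in 49 libraries. The position at 150 nt (27761514) held 10.8% and was listed in 11 libraries, and the position at 156 nt (27761508) held 3.05% and was listed in 4.

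5′ ends less than 20 nt apart were joined into a cluster within each sample, with 1 position given per cluster, so no library lists more than 1 of these 3 CLU positions by construction. Over all genes the smallest distance between positions of a gene within a library was 11 nt. All 8 CA1 libraries listed the one at 153 nt, as did 7 in CB, 7 in PFC, 7 in PCC, 6 in TC, 5 in DG, 5 in OC and 4 in PC. The position at 156 nt appeared in 3 PC libraries and in 1 DG library. The listed position thus differed by a few nt between libraries, and the 3 positions were treated as 1 joined group below, with positions less than 20 nt apart combined. In that way CLU had 60 joined groups.

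The group at 150 to 156 nt gave 69.4% to 98.8% of the CLU TPM of a library (mean 85.1% ± 6.09, SD, n = 64) and was the largest group in all 64. Its share averaged 90.9% ± 3.01 in CA1, 82.9% ± 7.26 in CB and 80.9% ± 6.07 in PC (SD, n = 8 each), so regional means lay within about 10 points of each other. The second group lay deep in the gene, 3778 to 3801 nt from the start, and held 6.57% of CLU TPM in 61 libraries. Its leading position, at 3791 nt (27757873), was listed in 49 libraries and held 5.80%. The third group, at 4327 to 4510 nt, spread over 35 positions and held 1.96% in 55 libraries.

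The remaining CLU positions were weak but some were widespread. The position at 10176 nt (27751488) was listed in 45 libraries with only 0.604% of CLU TPM, and the one at 3747 nt (27757917) in 32 libraries with 0.578%. The position at 10968 nt (27750696) was listed in 27 libraries with 0.616%, and its group made up 23.6% of CLU TPM in a single library, that of CB in 10-yr-old females. That library listed 644 positions, the fewest of the 64, and the part of this in its shares was not tested. Of the 224 CLU positions 137, or 61.2%, were listed in 1 library only. The files give the span of each gene but no exons, so whether a position is exonic or intronic was not analysed here.

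APOE had no position of that kind. APOE lies on the plus strand of chromosome 19, from 51334445 to 51337272 of the same assembly, and its 97 positions fell into 11 joined groups. No APOE position was listed in more than 24 of the 64 libraries, and 50 of the 97 were listed in 1 library only. Only 24.2% of APOE TPM lay within 500 nt of the annotated start, against 87.3% for CLU.

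3 groups carried most of the APOE TPM. The group around the annotated start, from 31 nt before it to 41 nt inside, held 23.9% in 36 libraries, and the position exactly at the start (51334445) was listed in 18 of them. A group in mid-gene, 1486 to 1668 nt from the start, held 32.8% and was listed in 53 libraries, the most of any APOE group, over 35 positions. The group at 2575 to 2701 nt, near the end of the gene, held 34.9% in 41 libraries. Its position at 2610 nt (51337055) was listed in 24 libraries and held 6.36% of APOE TPM, whereas the one at 2620 nt (51337065) was listed in 8 libraries and held 24.4%. That large share came mostly from a single library, the CB library of 10-yr-old females, in which this position was the only APOE position and reached 7666 TPM. That library is the one with the fewest listed positions (644). Without it the group near the end held 15.7% of APOE TPM in 40 libraries, the least of the 3 groups, against 42.5% in the mid-gene group and 31.0% in the group at the start.

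**Figure D1:**
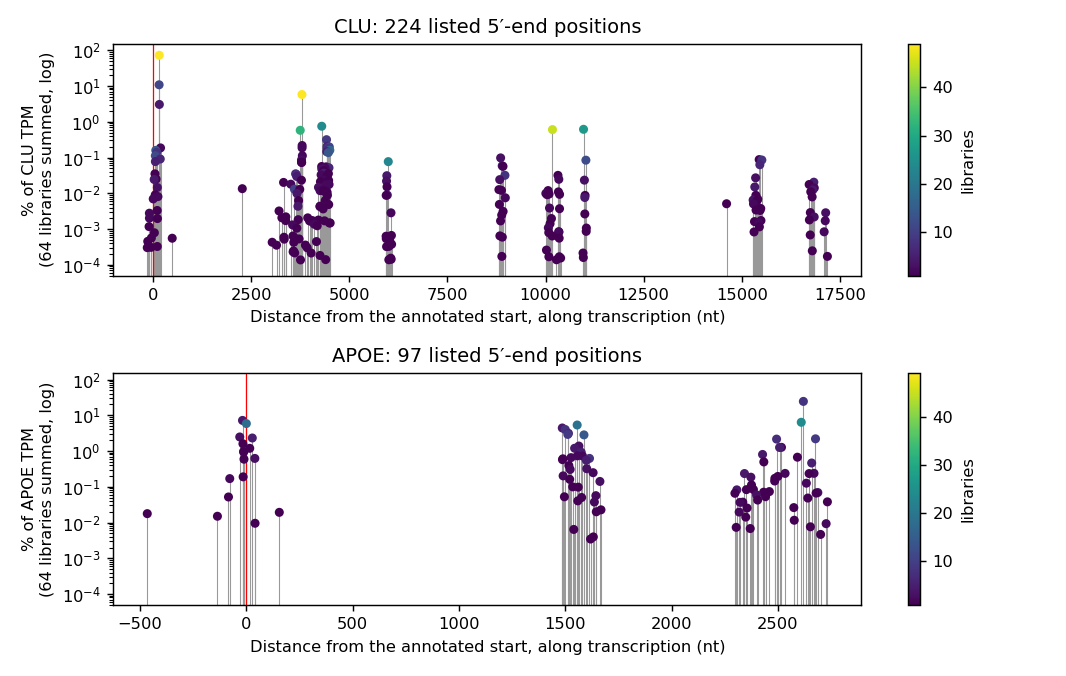
Every listed 5′-end position of CLU (upper) and APOE (lower) by its distance in nt from the annotated start (red line), with its percent of the gene's TPM summed over 64 libraries on a log axis. Colour gives the number of libraries that listed the position; CLU is led by 1 position at 153 nt with 72.5%, and APOE is spread over 3 stretches.

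Which APOE group led differed from library to library. Among the 62 libraries that listed APOE, the mid-gene group was the largest of the 3 in 38, the group at the start in 18 and the group near the end in 6. The mid-gene group was the largest of the 3 in all 8 CA1 libraries. There it held 45.4% ± 10.5 of APOE TPM (SD, n = 8), and the group at the start held 5.59% ± 11.4 and was listed in 2 of the 8. In TC the group at the start held 38.6% ± 34.0 and was listed in 6 of 8 libraries (SD, n = 8). These SDs are near or above the means in several regions, so the order of the regions by these shares is not resolved.

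**Figure D2:**
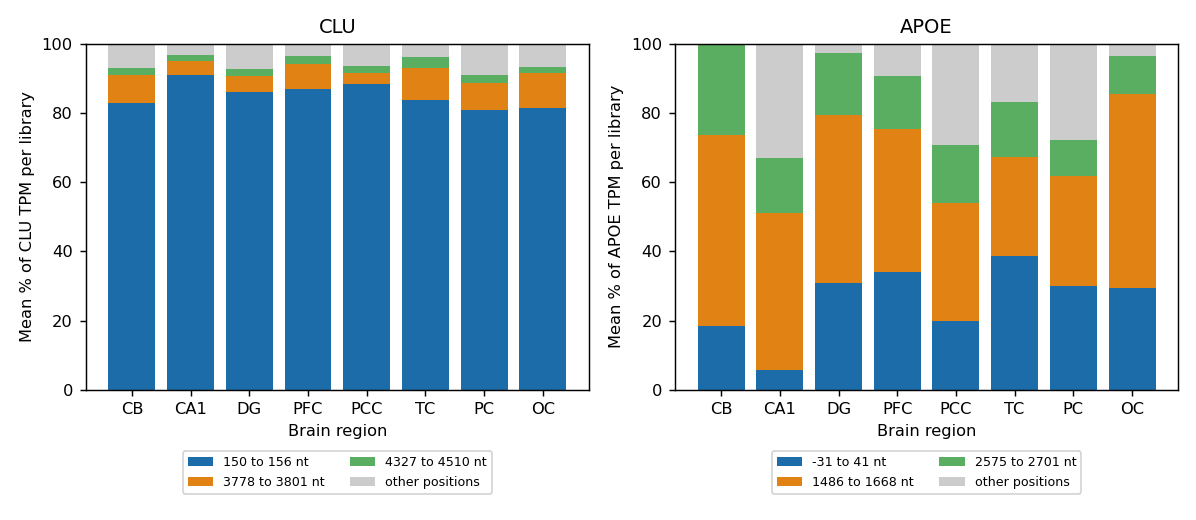
Mean percent of the CLU (left) and APOE (right) TPM of a library that came from the 3 largest joined groups of positions and from all others, by region (8 libraries each, 7 in CB and PCC for APOE). The CLU group at 150 to 156 nt averaged 80.9% to 90.9% in every region, and no APOE group exceeded 56.3%.

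Whether the use of the start differed between regions or ages was tested on 12 shares by exact tests over the animal groups. The tests covered the percent of TPM at the gene's main position and within 500 nt of its start. CLU within 500 nt was 90.2% in the hippocampus against 85.2% in the neocortex, a difference of 4.95 points ± 3.41 (SD, n = 8) that was positive in 7 of the 8 animal groups. The exact p by sign flips was 0.0156 and rose to 0.171 when adjusted over the 12 tests. For APOE the same share was 18.9% in the hippocampus against 30.9% in the neocortex, with an SD of 26.1 points over the 8 differences and an adjusted p of 0.509 (exact sign-flip test). The smallest adjusted p of the 12 was 0.171, so none passed 0.05. With so few animal groups, a single test at its smallest possible exact p could not pass 0.05 after adjustment over 12 tests. The share at the single position at 153 nt of CLU ran from 0% to 96.9% between libraries, since a library lists only 1 of the 3 neighbouring positions, so it does not measure how far the start region was used.

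The use of single positions was also tested with diffSplice of limma over 1265 genes with 2 or more positions listed in at least 8 libraries, 20 of them in CLU and 9 in APOE. This test asks whether a position departs from the other positions of its gene. 1.26% of genes were called for CB against the other regions, 3.95% for the hippocampus against the neocortex and 0.553% for 10 and 20 yr against 1 and 4 yr. Neither CLU nor APOE was called in any of the 3. The lowest adjusted p of the 2 genes was 0.155, for APOE in CB (limma, diffSplice with Simes adjustment), and the gene-wise F test of diffSplice gave 0.00653 for the same comparison. For APOE these values involve the position at 51337065, which was listed in 8 libraries, 3 of them in CB, with most of its TPM in 1 library, and so reached the filter only through CB. Its neighbour at 51337055 had a log2 departure of the opposite sign, -2.68 (adjusted p = 0.227, limma). These 2 positions lie closer than the 11 nt that is the smallest distance within a library, so no library lists both. The opposite sign thus partly follows by construction. The F test cannot tell a change in use from which of the 2 was listed. When joined groups were tested in place of single positions, the one near the end of APOE had a log2 departure of 1.86 in CB (adjusted p = 0.650), and the group at 3778 nt of CLU had 1.19 in CB and -1.13 in the hippocampus against the neocortex (adjusted p = 0.729 and 0.426, limma).

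CLU was among the most abundant transcripts in every region. It averaged 11631 TPM ± 5506 (SD, n = 64), had rank 4 of all genes by mean TPM, and stood among the 10 highest genes in 60 of 64 libraries. It took 2.07% of all listed TPM. The lowest library had 4916 TPM and the highest 28896 TPM, with a median of 9500 TPM.

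CLU levels overlapped widely between regions. In CB the 8 libraries ran from 8462 to 17718 TPM with a median of 10312 TPM. In CA1 they ran from 12209 to 21817 TPM (median 17795) and in DG from 4916 to 13653 TPM (median 7160). In PFC they ran from 7217 to 28896 TPM (median 15199), in PCC from 5607 to 21210 TPM (median 9500) and in TC from 6184 to 20045 TPM (median 11254).

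PC ran from 5775 to 12931 TPM of CLU (median 8318) and OC, the most even region, from 5893 to 9352 TPM (median 7315). The means in order of log2 level were 17084 ± 4295 TPM in CA1, 17097 ± 8297 in PFC, 11531 ± 3321 in CB, 11355 ± 4612 in TC, 10883 ± 5000 in PCC, 9222 ± 2912 in PC, 8297 ± 3306 in DG and 7577 ± 1382 in OC (SD, n = 8 each). At the ends of the order, the lowest CA1 library (12209 TPM) was above the highest OC library (9352 TPM), a pair chosen after its values were seen. The share of all genes with that order was not counted. CA1 also listed more positions, 12036 on average against 4460 in OC, and the part of this was not tested.

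**Figure D3:**
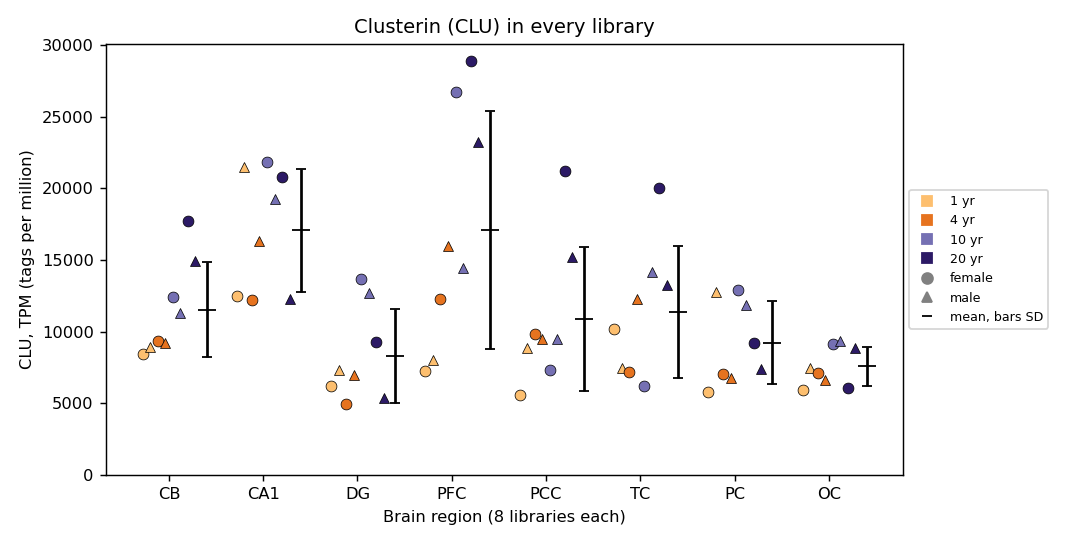
CLU TPM in every library by region, with colour for age, circles for females and triangles for males, and the mean with its SD at the right of each region (n = 8). The CA1 libraries had 12209 TPM and more and the OC libraries 9352 TPM and less, a pair chosen after its values were seen. How many of all genes had that order was not counted.

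No neighbours in this order were called different, in a test that could not have called a single pair. Over the 14 neighbour pairs of CLU and APOE, two-sided exact tests that flip the signs of the 8 animal-group differences gave adjusted p-values of 0.547 to 0.977, and the smallest p that the design allows before adjustment is 0.00781. The nearest to it among the CLU pairs was PFC over CB, by 0.45 on the log2 scale ± 0.46 (SD, n = 8). PFC was higher in 6 of 8 animal groups (exact sign-flip p = 0.0391, adjusted p = 0.547). A single pair at the smallest possible p could not be called after adjustment over the 14 tests. The order was also taken from the same values, so neighbours were close by selection. Whether neighbouring regions differ is thus not decided by these tests.

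The 3 planned comparisons of regions were fitted with limma on log2(TPM + 1) over 6106 genes. CLU was called in 1 of them. In CA1 it was higher than in DG by 1.09 on the log2 scale (SE 0.38, adjusted p = 0.0368, limma), and CA1 was above DG in all 8 animal groups. The ranges still overlapped, through the DG libraries of 10-yr-old females (13653 TPM) and males (12717 TPM). 19.4% of all genes were called in that comparison, 18.5% as higher and 0.852% as lower in CA1, and the median log2 difference of all genes was 1.37, above that of CLU. The call was lost with a pseudocount of 0.25 TPM (adjusted p = 0.117), with quantile normalization (log2 difference 0.54, adjusted p = 0.357) and with the number of listed positions as a covariate (log2 difference 0.82, adjusted p = 0.403). It was also lost when any animal group except the 10-yr-old females or the 10-yr-old males was left out, with log2 differences of 1.03 to 1.16 and adjusted p-values of 0.0415 to 0.0857 over the 8 fits.

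2 other measures moved with CA1. Its libraries listed more positions than those of DG, as given above, and 22.4 ± 4.60 CLU positions against 9.50 ± 5.37 in DG (SD, n = 8 each). The summed TPM of 6 oligodendrocyte markers was 4987 to 8193 in CA1 against 736 to 4047 in DG, and that of 8 astrocyte markers was 326 to 1216 in CA1 against 668 to 1714 in DG. The astrocyte markers did not move 1 way. The median of GFAP was 615 TPM in CA1 against 328 TPM in DG, and that of ALDH1L1 was 39.2 against 312 TPM. The median log2 difference of CA1 against DG was 3.50 for the 5 tested oligodendrocyte markers and 1.27 for the 7 tested astrocyte markers, beside 1.37 over all genes. The part of these measures in the CLU difference was not tested. In such bulk samples, more cells of a type and more RNA per cell cannot be told apart. In PCC, whose libraries listed the fewest positions, the astrocyte markers summed to 0 to 357 TPM with a median of 7.95 TPM, beside the CLU median of 9500 TPM.

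CLU in CB did not differ from the other 7 regions beyond its error, with a log2 difference of 0.09 (SE 0.29, adjusted p = 0.900, limma), so that the estimate ± 2 SE ran from -0.49 to 0.67. In that comparison 2.23% of genes were called. For the hippocampus against the neocortex the CLU difference was 0.16 (SE 0.23, adjusted p = 0.723, limma), with 8.19% of genes called and estimate ± 2 SE from -0.29 to 0.62. The test for any difference between the 8 regions gave CLU an F of 2.41 and an adjusted p of 0.0900 (limma), where 26% of genes were called. Set against the mean of the other 7 regions, a comparison chosen after the data were seen, CLU was higher in CA1 by 0.75 (SE 0.29, adjusted p = 0.0423, 31.2% of genes called) and differed by 0.61 in PFC (SE 0.29, adjusted p = 0.605, 0.229% called, limma). The CA1 value lost its call with a pseudocount of 0.25 TPM (adjusted p = 0.129), quantile normalization (log2 difference 0.52, adjusted p = 0.162), positions of at least 2 TPM (adjusted p = 0.0659), the main position alone (adjusted p = 0.133) and the number of listed positions as a covariate (0.47, adjusted p = 0.598, limma). It also lost it when any animal group but the 20-yr-old males was left out, with log2 differences of 0.66 to 0.84 and adjusted p-values of 0.0424 to 0.0955 over the 8 fits.

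The CLU means of 10 and 20 yr lay above those of 1 and 4 yr, by a difference that did not pass adjustment. Averaged over the 8 regions, CLU had 9008 ± 1819 TPM in the 1-yr-old, 9603 ± 1218 TPM in the 4-yr-old, 13301 ± 671 TPM in the 10-yr-old and 14611 ± 2883 TPM in the 20-yr-old groups (SD, n = 2). The 4 older groups, at 13775 TPM in 10-yr-old females, 12826 TPM in 10-yr-old males, 16650 TPM in 20-yr-old females and 12572 TPM in 20-yr-old males, did not overlap with the 4 younger ones. Those had 7722 TPM in 1-yr-old females, 10295 TPM in 1-yr-old males, 8742 TPM in 4-yr-old females and 10464 TPM in 4-yr-old males.

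Among all 6106 tested genes, 0.54% had all 4 older means above all 4 younger ones, and the median log2 difference of all genes was -0.30. The log2 difference of CLU was 0.54, with an exact permutation p of 0.0286, the smallest that 4 against 4 groups can give, and 0.257 after adjustment over the 18 age tests of CLU and APOE. A single test at that floor cannot pass 0.05 after adjustment over 18 tests, here or in the regions below. Across all genes, limma gave the CLU difference an SE of 0.42 and an adjusted p of 0.732. It called 0 of the 6106 genes for age, 549 of which had an unadjusted p under 0.05, and with a mean-variance trend, an alternative chosen after the data were seen, it called 5. Between successive ages the largest CLU step was from 4 to 10 yr, with a log2 difference of 0.45 (SE 0.60, adjusted p = 0.953, limma).

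In CB the older and younger libraries did not overlap either. CLU had 12410, 11292, 17718 and 14923 TPM in the CB libraries of 10-yr-old females, 10-yr-old males, 20-yr-old females and 20-yr-old males, against 8462, 8903, 9332 and 9206 TPM in those of 1-yr-old females, 1-yr-old males, 4-yr-old females and 4-yr-old males. The 4 older libraries were all above the 4 younger ones, whose SD was 387 TPM. In CB 0.197% of genes had that order. The ratio of the means was 1.57, the log2 difference 0.63, and the exact permutation p 0.0286 (adjusted p = 0.257 over 18 tests). Fitted over all genes, the adjusted p was 0.912 with the spread pooled over regions and 0.0862 in CB alone with sex as a block (limma), and 0.0983% of genes were called in the pooled fit.

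PFC had the highest mean at 10 and 20 yr. CLU reached 26736, 14435, 28896 and 23250 TPM in the PFC libraries of 10-yr-old females, 10-yr-old males, 20-yr-old females and 20-yr-old males, against 7217, 8012, 12268 and 15962 TPM in those of 1-yr-old females, 1-yr-old males, 4-yr-old females and 4-yr-old males. The library of 10-yr-old males lay below that of 4-yr-old males, so the groups overlapped by this pair. The ratio of the means was 2.15 and the log2 difference 1.13 (exact permutation p = 0.0571, adjusted p = 0.257). In the model of all genes the adjusted p was 0.570 (limma), and 0.0328% of genes were called.

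In the other 6 regions the ratios of the older to the younger mean of CLU ranged from 1.19 in CA1 to 1.61 in DG, the classes overlapped in each, and the exact permutation p-values were 0.114 to 0.371. The sign of the difference was thus the same in all 8 regions, which share the same animals. None of the regional age tests called CLU or APOE, and they called 0.0655% of genes in CA1, 0.0328% in DG and in TC, 0.131% in PCC and in PC, and 0% in OC (limma). A difference of the age effect between regions was not detected (F = 0.24, adjusted p = 1.00, limma).

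**Figure D4:**
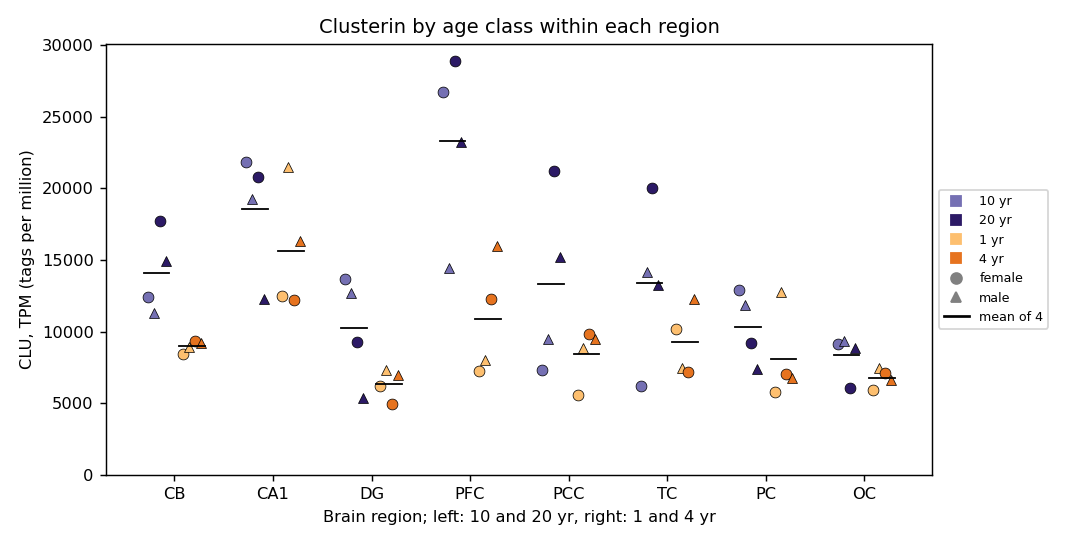
CLU TPM in each region at 10 and 20 yr (left) and at 1 and 4 yr (right), 4 libraries each, with the mean as a line. The classes did not overlap in CB, where the older libraries had 11292 TPM and more and the younger ones 9332 TPM and less.

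Glial markers were set beside these age differences. The 8 astrocyte markers summed to 27.2 to 917 TPM in PFC at 10 and 20 yr against 169 to 506 TPM at 1 and 4 yr, and in CB to 0 to 721 TPM against 39.4 to 640 TPM. GFAP, the intermediate filament of astrocytes, ranged from 5.96 to 572 TPM in older PFC against 59.0 to 211 TPM in younger PFC. The 6 oligodendrocyte markers summed to 1100 to 2065 TPM in older PFC against 122 to 1350 TPM in younger PFC, and in CB to 1344 to 5596 TPM against 1237 to 1828 TPM. These ranges overlapped between the age classes. The markers of neurons, 10 in all, summed to 332 to 731 TPM in older PFC against 398 to 828 TPM in younger PFC, and in CB to 608 to 1684 TPM against 294 to 902 TPM. The part of these in the CLU differences was not tested.

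Males and females had close CLU means. The 4 male groups averaged 11539 TPM ± 1345 and the 4 female groups 11722 TPM ± 4218 (SD, n = 4 each). The log2 difference of males minus females was 0.06 (SE 0.42, adjusted p = 0.996, limma), with estimate ± 2 SE from -0.78 to 0.91.

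APOE was listed in 62 of 64 libraries at a far lower and more uneven level. It averaged 525 TPM ± 974 (SD, n = 64), with a median of 323 TPM, and ranked 162nd by mean TPM. It was listed at 0 in the CB and PCC libraries of 4-yr-old males. In libraries where it was listed its level ran from 4.47 TPM in PCC of 20-yr-old females to 7666 TPM in CB of 10-yr-old females, the library with the fewest listed positions, whose part was not tested.

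By region the lowest, median and highest APOE values were 0, 611 and 7666 TPM in CB, 128, 285 and 914 TPM in CA1, and 318, 446 and 1124 TPM in DG. In the neocortex they were 31.2, 477 and 1185 TPM in PFC, 0, 635 and 2048 TPM in PCC, and 155, 203 and 666 TPM in TC. In PC they were 12.7, 188 and 798 TPM and in OC 12.04, 97.7 and 329 TPM. The highest OC library was just above the lowest DG library (318 TPM).

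**Figure D5:**
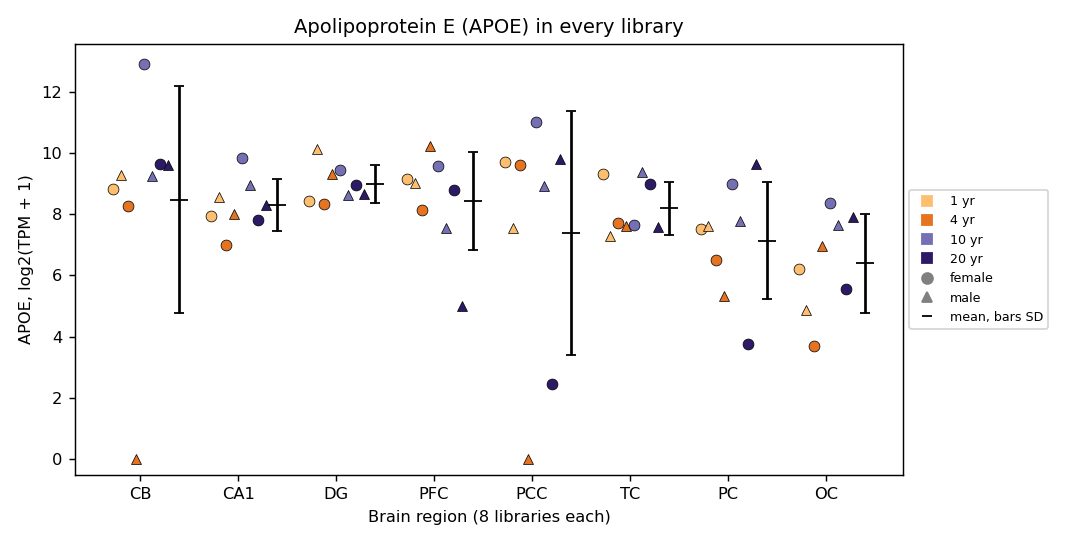
APOE in every library by region as log2(TPM + 1), with colour for age, circles for females and triangles for males, and the mean with its SD (n = 8). DG had the highest mean log2 level (8.98) and OC the lowest (6.40), and the libraries listed at 0 are those of 4-yr-old males in CB and PCC.

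In order of mean log2(TPM + 1), APOE stood at 8.98 ± 0.61 in DG, 8.47 ± 3.69 in CB, 8.43 ± 1.60 in PFC, 8.30 ± 0.84 in CA1, 8.18 ± 0.88 in TC, 7.38 ± 3.97 in PCC, 7.14 ± 1.90 in PC and 6.40 ± 1.61 in OC (SD, n = 8 each). No neighbours were called different in the exact tests of 14 pairs given above, with the limit stated there. From the ends of the order, DG was above OC in all 8 animal groups by a mean of 2.58 on the log2 scale, a pair chosen after its values were seen.

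None of the planned comparisons called APOE. Its log2 difference was 0.64 in CB against the other 7 regions (SE 0.77, adjusted p = 0.686, limma), 1.14 in the hippocampus against the neocortex (SE 0.61, adjusted p = 0.252) and -0.68 in CA1 against DG (SE 1.02, adjusted p = 0.665). Estimates ± 2 SE ran from -0.91 to 2.19, from -0.07 to 2.35 and from -2.73 to 1.36. Of the 2 genes tested, APOE had the wider intervals in all of them, and changes of more than 2-fold lie inside each. The F test over the regions gave 1.40 (adjusted p = 0.344, limma).

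The size of the highest APOE mean by age, in TPM, depended on a single library. Averaged over the 8 regions, APOE had 409 ± 11.6 TPM in the 1-yr-old, 285 ± 27.5 TPM in the 4-yr-old, 1022 ± 871 TPM in the 10-yr-old and 385 ± 98.2 TPM in the 20-yr-old groups (SD, n = 2). The mean at 10 yr joined 1638 TPM in females and 405 TPM in males, and 10-yr-old females were the highest group. Over the 7 regions other than CB the mean of 10-yr-old females was 777 TPM. On the log2 scale 10 and 20 yr exceeded 1 and 4 yr by 0.94 (SE 0.55, adjusted p = 0.634, limma), and the classes overlapped (exact permutation p = 0.314). Without the CB library of 10-yr-old females this log2 difference was 0.83 (adjusted p = 0.686, limma).

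The largest APOE step on the log2 scale was that from 4 to 10 yr, of 2.45 (SE 0.77, unadjusted p = 0.0113, adjusted p = 0.734, limma). It was 2.22 without the CB library of 10-yr-old females (adjusted p = 0.747, limma). The steps from 1 to 4 yr (-1.55) and from 10 to 20 yr (-1.46) had the opposite sign, with adjusted p-values of 0.999 and 1.00 (limma). The 2 libraries at 0 both belong to 4-yr-old males and enter these values.

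Within CB, APOE had 7666, 599, 801 and 783 TPM in the libraries of 10-yr-old females, 10-yr-old males, 20-yr-old females and 20-yr-old males, against 449, 623, 306 and 0 TPM in those of 1-yr-old females, 1-yr-old males, 4-yr-old females and 4-yr-old males. The 10-yr-old male library lay below that of 1-yr-old males, so the classes overlapped. The log2 difference was 3.76 (SE 1.57, adjusted p = 0.466, limma), and the exact permutation p was 0.0571. Without the library of 4-yr-old males, listed at 0, it was 1.69 (adjusted p = 1.00), and without that of 10-yr-old females 2.84 (adjusted p = 0.860, limma), and the difference of CB from the other 7 regions was then 0.21 in place of 0.64. Microglia markers, 6 in all, summed to 0 to 2456 TPM in the older CB libraries against 73.0 to 296 TPM in the younger ones. The 2456 TPM was C1QC alone, listed in 1 of the 4 older libraries. Older against younger, the medians were 214 and 163 TPM for the sum, 0 and 47.1 TPM for C1QC, and 31.2 and 65.9 TPM for CD68. The markers thus did not move 1 way, and their part was not tested.

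In OC, APOE had 329, 198, 46.6 and 237 TPM in the libraries of 10-yr-old females, 10-yr-old males, 20-yr-old females and 20-yr-old males, against 72.5, 28.3, 12.04 and 123 TPM in those of 1-yr-old females, 1-yr-old males, 4-yr-old females and 4-yr-old males. The ranges overlapped (exact permutation p = 0.0857). In PFC and DG the older mean was the lower one, at 354 against 636 TPM in PFC and 494 against 607 TPM in DG, and both pairs overlapped. The test of a different age effect between regions gave an F of 1.11 and an adjusted p of 0.889 (limma). Males averaged 391 TPM ± 62.9 and females 659 TPM ± 656 (SD, n = 4 each), with a log2 difference of males minus females of -0.43 (SE 0.55, adjusted p = 0.977, limma).

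CLU and APOE levels were weakly related over the libraries. The Pearson correlation of their log2(TPM + 1) was 0.12 and Spearman's rho 0.22 over the 64 libraries, and Pearson's r was 0.03 once the mean of each region was subtracted. Libraries share animals, regions and depth. Over the same libraries the correlation with the log2 number of listed positions was 0.22 for CLU and 0.10 for APOE.

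The genes with a pattern most like CLU, out of 4781 tested genes with a symbol, were NEURL4 (r = 0.65), DPP7 (0.53), IQCE (0.51), TRIM52 (0.49) and ZBTB47 (0.48), where the median r of all genes was 0.09. With region means subtracted, r was 0.51, 0.41, 0.29, 0.24 and 0.33 in the same order. NEURL4 was as abundant as CLU, at 12100 TPM ± 5996 (SD, n = 64), and was listed in all 64 libraries. The other 4 were listed in 14 to 44 libraries. For APOE the closest were TRIR (0.54), RPL13 (0.48), ITM2B (0.42), WBP2 (0.42) and UPF2 (0.41), with a median r of 0.05, and with region means subtracted r was 0.56, 0.53, 0.39, 0.41 and 0.39 in the same order. RPL13 is a ribosomal protein and UPF2 a factor of nonsense-mediated decay. ITM2B, a membrane protein that interacts with the amyloid precursor protein, averaged 195 TPM ± 254 (SD, n = 64). Each r is over 64 libraries.

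Other genes of lipid transport, clusterin and APOE receptors, sterol synthesis, chaperones, complement and amyloid processing were mostly sparse. Of 167 such genes, 108 had a listed position and 60 were tested. In CB against the other regions 0 of the 60 were called higher and 1 lower, where 0.884% and 1.34% of all genes were. That gene was SERPING1, the inhibitor of the first complement proteases, which was listed in 1 of 8 CB libraries and averaged 4.37 TPM there, and was listed in 0 of 8 PCC libraries (log2 difference -3.95, adjusted p = 0.00463, limma).

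In the hippocampus against the neocortex 6 of the 60 were called higher and 1 lower, beside 7.98% and 0.213% of all genes. The median log2 difference was 0.73 in the lists and 0.55 over all genes. Of the 6, 3 reached the filter of 8 libraries only through the hippocampus, so that their calls support nothing. LRP1B, a receptor of the LDL receptor family, was higher by 2.32 on the log2 scale (adjusted p = 0.00533, limma), and C3, the central complement protein, by 2.61 (adjusted p = 0.00100). APOM, an apolipoprotein, and APOC1, an apolipoprotein whose gene lies 5013 nt from the end of APOE on the same strand, were among those 3 and were listed in 7 and 6 hippocampal libraries and in 3 others each. HSPB6, a small heat shock protein, was the one called lower (log2 difference -2.02, adjusted p = 0.00121, limma).

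In CA1 against DG 9 of the 60 were called higher and 0 lower, where 18.5% and 0.852% of all genes were, with a median of 1.54 beside 1.37 over all genes. Of the 9, 2 reached the filter only through CA1. LRP1B was listed in 8 of 8 CA1 libraries against 3 of 8 in DG, at 62.3 ± 51.3 TPM against 5.24 ± 10.7 TPM (SD, n = 8 each), and C3 in 8 against 3. SORT1, the sortilin receptor that takes up APOE, was one of them, listed in 6 CA1 libraries and in 3 of the other 56. Among the genes beside APOE, TOMM40, which encodes the channel of the mitochondrial outer membrane and ends 3138 nt before APOE, was higher in CA1 than in DG (30.9 ± 8.76 TPM against 1.26 ± 3.55 TPM, SD, n = 8 each, log2 difference 4.51, adjusted p = 0.00837, limma). Its mean over all 64 libraries was 44.4 TPM, above its CA1 mean. Of 6 tested neighbours of APOE in the human genome, 1 was called higher in CA1, and their median log2 difference was 0.70 beside 1.37 over all genes. For age and sex 0 of the 60 were called. No other listed gene overlapped the span of CLU or APOE.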

How the data were processed

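CAGE-seq values of 64 libraries were used. Per the labels and the methods, the authors used TopHat2 on the MMUL 1.0 assembly with quality-filtered reads, kept uniquely placed ones, grouped their 5′ ends, in each sample, into clusters where less than 20 nt apart and deposited 1 position per cluster with its level as RPM, which they call TPM, with no length correction. Columns were matched to samples by name.

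Gene TPM was the sum over positions. The 6106 genes that reached 1 TPM in 8 or more libraries were fitted on log2(TPM + 1), so that folds of low genes are understated, with limma 3.58.1 in R 4.3.3, with region and animal group as terms. Calls were made where the p, adjusted by Benjamini-Hochberg, was under 0.05. Ages and sexes were compared on animal-group means over regions, and ages within a region on the region and age means with a pooled spread. Exact tests enumerated 256 sign flips or 70 permutations, two-sided. Samples of all 8 regions came from each animal, the source of the pairing. Deviations of libraries of 1 animal group correlated by 0.0113 on average between regions, and those of different groups by -0.0016. The labels give 2 animals for each age and sex, and the methods 1 RNA-seq library for each such pair. The p-values measure the spread named at the start for each kind of comparison. No pair of libraries held identical values. The lowest values above 0 were worth 2 to 7 tags, and positions with fewer tags were not listed. No count model was run, and no interval for counting error is given.

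The members and gene lists were chosen with earlier results of these data known. Named were both genes, their 5 largest positions and those in at least 32 libraries, the 5 most alike genes, and up to 4 list members; HSPB6, SORT1 and others were named outside this rule after their values were seen. The gene tests and position tests were run on simulated data with known changes, and the outcome is not given here. There the values of each gene or position were shuffled over the libraries 1 by 1. The shuffle removes differences between libraries that many genes share, such as those in the number of listed positions, so the simulation does not cover these. Other software was pandas 2.3.3 and NumPy 2.4.6 in Python 3.11.15, with SciPy 1.17.1 and Matplotlib 3.10.9. Alternatives covered the pseudocount, filter, scaling, choice of positions, covariates, the animal-group term and left-out samples.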

Additional observations from a re-analysis of the deposited data

Results flagged for a closer look

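Dixon's limit at the 95% level was applied to 18 groups of 8 values, the 2 genes in 8 regions and in the animal-group means. In these, 5 values of APOE and none of CLU stood farther from the rest than the limit allows. Chance gives about 1 in 20 groups only where values follow a normal distribution. The gaps were taken on TPM, where APOE was uneven, and not on the log2 scale of the tests. The number of values past the limit thus cannot be set against chance. In CB the library of 10-yr-old females had 7666 TPM, with the next at 801 TPM, and all of it came from the position 2620 nt from the start. That library listed 644 positions, the fewest of the 64. In PCC the 10-yr-old females had 2048 TPM and the next 884 TPM, and 76.7% of the 2048 TPM lay at the position 18 nt before the annotated start. That library listed the second fewest positions, 744, and the part of these low numbers in either value was not tested. In CA1 the same animal group had 914 TPM against 495 TPM for the next, over 8 positions. Its mean over the regions was 1638 TPM, with the next at 454 TPM, which is not independent of the CB value, and over the 7 regions other than CB it was 777 TPM with the next at 412 TPM. In DG the library of 1-yr-old males had 1124 TPM and the next 687 TPM, with 59.5% of it in the group at the start. The 10-yr-old female libraries thus drew their APOE TPM from different positions in different regions.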

How the results depend on the processing

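Of 640 values computed under other settings, 576 kept their direction and side of the threshold and 24 reversed, and of 536 with an animal group or library left out 495 did and 20 reversed. The call of CLU in CA1 against DG was lost with a pseudocount of 0.25 TPM (1.09), quantile normalization (0.54), positions of at least 2 TPM (1.09, adjusted p = 0.0578), the main position alone (5.74, adjusted p = 0.155) and the number of positions as covariate (0.82), and in 6 of 8 leave-outs (1.03 to 1.16). That of CLU in CA1 against the other regions was lost under the same settings (0.75, 0.52, 0.75, 4.26 and 0.47 in that order) and in 7 of 8 leave-outs. The F test of CLU over the regions was called with no filter on low genes (7.23, adjusted p = 0.000341), within 500 nt of the start (3.11, adjusted p = 0.0326) and with a mean-variance trend (4.58, adjusted p = 0.00328). For APOE the age difference in CB was called at the main position alone (6.83, adjusted p = 0.0250), and the F test of diffSplice gave 0.00653 for its position use in CB. Without 10-yr-old males the position use of APOE by age had an adjusted p of 0.0326 (0.0326 to 0.894 over the 8 leave-outs). The cause was not tested, except that the main position of CLU is 0 wherever a neighbouring position is listed in its place.

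Reversals fell on differences that were not called. Within 500 nt of the start, APOE gave -2.04 in CB, -0.64 in the hippocampus, -1.57 in CA1 against the other regions, and for age 0.91 in DG, 0.15 in PFC and -0.27 in PCC. At its main position APOE gave 1.77 in CA1 against DG, -0.0066 in PFC against the other regions and -1.03 for age in TC. In its main joined group it gave 1.81, -0.74 and, for age in PCC, -2.60, and with the covariate -0.87 in CA1 against the other regions. At its main position CLU gave -0.66 for 4 against 1 yr, -0.43 for 10 against 4 yr and, for 10 and 20 yr against 1 and 4 yr, -2.60 in CB, -2.44 in PCC and -6.17 in PC. Quantile normalization gave -0.027 for CLU at 20 against 10 yr, -0.067 for its age difference in PC and 0.11 for that of APOE in DG. The CLU share in CB against the other regions was -2.53 points at the main joined group and 0.058 points within 100 nt, and the share by age within 100 nt was -0.50 points.

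Leave-outs that reversed a sign ran from -0.027 to 1.21 for APOE in PFC against the other regions, from -0.10 to 0.31 for CLU at 4 against 1 yr, from -0.22 to 0.36 at 20 against 10 yr and from -0.039 to 0.21 between the sexes. For the age difference of APOE they ran from -0.56 to 0.28 in DG, from -1.08 to 3.73 in PCC, from -0.087 to 0.92 in TC and from -0.66 to 2.27 in PC. The CLU share at the main position by age ran from -6.21 to 10.9 points and that near the start in CB from -3.81 to 0.014 points.

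Without the animal group as a block, the CLU difference of CA1 against DG kept its call (1.09, adjusted p = 0.0425), and no call of CLU or APOE changed in any comparison fitted without it. With sex as a block in single regions, the age difference of CLU in CB had an adjusted p of 0.0862 and that in PFC one of 0.332. Counts of genes called moved by more than 1.5 times: CB from 136 to 27 (main position) up to 78 (joined group), with 45 near the start, the hippocampus from 500 to 68 (main position), 111 (covariate), 148 (quantile), 243 (without 20-yr-old females), 265 (joined group) and 755 (no filter), and CA1 against DG from 1182 to 161, 166, 276, 747 (without 4-yr-old males), 582 and 1838 in the same order. Counts over the regions moved from 1590 to 325 (main position), 395 (covariate), 649 (quantile), 959 (joined group), 988 (near the start) and 1014 (without 4-yr-old males), for age from 0 to 5 (trend), and for region by age from 0 to 30 (no filter). Single libraries per region, age and sex and values listed only from 1 TPM limit what low APOE positions can show.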
